A study of Mus musculus with 18 samples.

Results

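The AMPA receptor genes described here are the 4 genes of the channel subunits, Gria1, Gria2, Gria3 and Gria4, and 6 genes of auxiliary subunits, namely the transmembrane AMPA receptor regulatory protein (TARP) genes Cacng2, Cacng3 and Cacng8, the cornichon genes Cnih2 and Cnih3, and the Shisa family gene Shisa9. They are a list of names, and each symbol matched 1 Ensembl identifier, so that 10 of the 38561 genes counted in each library are members. All 10 passed the filter of at least 10 counts in at least 1 library and were tested among 17545 genes. The RNA came from the frontal cortex, striatum and hippocampus of adult Pcm1-/- (KO) and littermate WT mice, labelled as C57 Bl6J, with 3 libraries in each of the 6 groups. The mutants descend from a gene-trap embryonic stem cell line and had at least 3 generations of backcrossing. The insertion is therefore in every cell, and sequence of the donor line can remain beside it and elsewhere in the genome. PCM1 is a protein of the centriolar satellites that surround the centrosome and the base of the cilium. Each of the 3 WT and 3 KO animals gave 1 library per region, so the regions do not come from separate animals. Each region was dissected whole, and a library holds the RNA of all its cell types.

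AMPA receptors are the ligand-gated cation channels that carry most fast excitatory transmission in the brain. They are tetramers of the GluA subunits that the Gria genes encode, and the subunit mixture sets conductance, kinetics and calcium permeability. Receptors that contain GluA2 pass little calcium, because the Gria2 transcript is edited at 1 codon of the pore loop, where the genomic glutamine codon is read as arginine. The TARPs carry receptors to the synapse, hold them at the scaffold and slow their closing, the cornichons assist export from the endoplasmic reticulum and slow deactivation, and SHISA9 (CKAMP44) changes recovery from desensitization.

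The 4 subunit genes are closely alike around the edited codon, and the windows are shown because the share of Gria2, described further on, bears on this position. Each line gives 27 bases of coding sequence from the GENCODE transcripts on GRCm38, 5′ to 3′ on the coding strand, with the codon at the Q/R position in capitals. The window lies at chr11:57243082-57243108 (plus strand, exon 11 of 16) in Gria1, chr3:80706899-80706925 (minus strand, exon 11 of 16) in Gria2, chrX:41610253-41610279 (plus strand, exon 11 of 16) in Gria3 and chr9:4464125-4464151 (minus strand, exon 12 of 17) in Gria4.
Gria1: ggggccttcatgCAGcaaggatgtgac
Gria2: ggtgcctttatgCAGcaaggatgcgat
Gria3: ggtgcttttatgCAGcaaggatgtgat
Gria4: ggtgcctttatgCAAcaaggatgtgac
All 4 genomic codons encode glutamine. The windows of Gria2 and Gria3 differ at 2 of the 27 bases, and those of Gria1 and Gria2 at 4. The longest run of identical bases between transcripts of different Gria genes was 57 (Gria3 and Gria4), so a read that lies within such a run cannot be placed on 1 gene. The deposited values are counts per gene and do not show editing.

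Counts assigned to genes ranged from 24950537 to 33405081 per library. Pcm1 measured 134 ± 14.4 CPM (counts per 1000000, scaled with TMM factors) in WT frontal cortex and 12.2 ± 0.0397 in KO frontal cortex (SD, n = 3 each), and KO means were 9.10%, 10.2% and 8.89% of WT in the frontal cortex, striatum and hippocampus, in that order. Region labels matched marker levels: the 5 striatal projection neuron markers summed to 4914 to 5876 CPM in WT striatum and 151 to 160.3 CPM in WT frontal cortex, and the 4 excitatory neuron markers to 2363 to 2423 CPM in WT frontal cortex and 13.1 to 80.1 CPM in WT striatum. WT striatum replicate 3 stood apart, with 5836 CPM of the 3 choroid plexus markers against 30.2 and 31.6 in the other two. In each group 1 library had a high level of 4 Y-linked genes (a group maximum of 114 to 137 CPM), and the others were under 1 CPM. In the striatum, WT was run on lane 5 and KO on lanes 3 and 4, and genotype there cannot be told apart from lane. In these bulk samples, fewer cells of a type and less RNA per cell cannot be told apart.

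The subunit genes differed between WT regions, except Gria2. In WT frontal cortex, Gria1 (ENSMUSG00000020524, chr11:57011387-57330244, plus strand) measured 373, 392 and 449 CPM. It measured 601, 579 and 549 CPM in WT striatum and 1059, 1312 and 1144 CPM in WT hippocampus. No library of one region reached the range of another, and the order was hippocampus, striatum, frontal cortex. The log2 difference of hippocampus over frontal cortex was 1.53 (SE 0.0973, adjusted p = 4.42e-09) and that of striatum over frontal cortex 0.51 (SE 0.0954, adjusted p = 0.000295) in edgeR's quasi-likelihood test. GluA1, its product, is the subunit most tied to activity-dependent insertion at synapses.

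Gria2 (ENSMUSG00000033981, chr3:80681450-80802835, minus strand) stayed within one range across the regions. Its WT libraries had 623, 623 and 724 CPM in frontal cortex, 667, 699 and 555.5 in striatum and 616, 756 and 681 in hippocampus. The 3 ranges overlapped, and log2 differences were 0.059 (SE 0.102, adjusted p = 0.689) for hippocampus and -0.036 (SE 0.102, adjusted p = 0.803) for striatum over frontal cortex.

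Gria3 (ENSMUSG00000001986, chrX:41400854-41678601, plus strand) was highest in the frontal cortex. It measured 314, 323 and 364 CPM there, 185, 188 and 173 in WT striatum and 175, 213 and 187 in WT hippocampus. The cortical libraries lay above all others, while striatum and hippocampus overlapped (log2 difference -0.078, SE 0.0895, adjusted p = 0.543). Hippocampus over frontal cortex gave -0.80 (SE 0.0899, adjusted p = 3.18e-06) and striatum over frontal cortex -0.88 (SE 0.0900, adjusted p = 4.82e-07).

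Gria4 (ENSMUSG00000025892, chr9:4417896-4796234, minus strand), whose product has fast kinetics and is known from interneurons and early development, had the lowest level per kilobase of exon of the 4 subunit genes in each region. Its WT libraries had 121, 117 and 134 CPM in frontal cortex, 92.8, 99.1 and 107 in striatum and 72.6, 75.9 and 86.9 in hippocampus. The 3 ranges did not overlap and fell in that order. The log2 difference was -0.66 (SE 0.0834, adjusted p = 1.14e-05) for hippocampus over frontal cortex, -0.31 (SE 0.0829, adjusted p = 0.00482) for striatum over frontal cortex and 0.34 (SE 0.0833, adjusted p = 0.00353) for striatum over hippocampus.

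Among the auxiliary genes, the TARP genes went in different directions. Cacng3 (ENSMUSG00000066189, chr7:122670492-122769393, plus strand), encoding TARP gamma-3, measured 182, 172 and 166 CPM in WT frontal cortex, 104, 123 and 105 in WT striatum and 57.6, 74.6 and 56.2 in WT hippocampus. The ranges fell in that order without overlap, and hippocampus over frontal cortex gave -1.47 (SE 0.147, adjusted p = 9.05e-07). Cacng8 (ENSMUSG00000053395, chr7:3390683-3415648, plus strand), encoding TARP gamma-8, the TARP best known from the hippocampus, measured 69.3, 71.5 and 70.6 CPM in WT frontal cortex, 60.6, 57.0 and 48.5 in WT striatum and 129.5, 168 and 139 in WT hippocampus. Here the order was hippocampus, frontal cortex, striatum, again without overlap, with log2 differences of 1.04 (SE 0.0941, adjusted p = 2.62e-07) for hippocampus and -0.35 (SE 0.0943, adjusted p = 0.00567) for striatum over frontal cortex. Cacng2 (ENSMUSG00000019146, chr15:77991748-78120028, minus strand), encoding stargazin, ranged from 144 to 213 CPM in WT frontal cortex, above the striatal range of 111 to 131 and the hippocampal range of 104 to 141. It was lower in both other regions (-0.56, SE 0.127, adjusted p = 0.00241 and -0.53, SE 0.127, adjusted p = 0.00244). It shares 323 exon bases with an antisense gene, and the strand setting of the counting is not given in the sources used here.

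Cnih3 and Shisa9 set the striatum apart, in opposite directions, and Cnih2 the hippocampus. Cnih3 (ENSMUSG00000026514, chr1:181352628-181460641, plus strand) measured 80.9, 90.9 and 103 CPM in WT frontal cortex, 36.0, 55.1 and 50.8 in WT hippocampus and 10.3, 6.09 and 8.80 in WT striatum. Its log2 difference of striatum over frontal cortex, -3.45 (SE 0.178, adjusted p = 1.07e-10), was the largest of the 10 genes in the 3 contrasts. Cnih2 (ENSMUSG00000024873, chr19:5092868-5098521, minus strand) measured 382, 419 and 373 CPM in WT hippocampus, 185, 167 and 174 in WT frontal cortex and 209, 189 and 165 in WT striatum. The hippocampus lay above the other two regions, which overlapped, with 1.16 (SE 0.0894, adjusted p = 4.06e-08) over frontal cortex and 0.10 (SE 0.0885, adjusted p = 0.391) for striatum over frontal cortex. Shisa9 (ENSMUSG00000022494, chr16:11984113-12270902, plus strand) was, of the 6 auxiliary genes, the one highest in the striatum in every WT library, at 137, 143 and 142 CPM against 83.3, 72.9 and 82.0 in WT frontal cortex and 80.5, 71.3 and 58.5 in WT hippocampus. Striatum over frontal cortex gave 0.82 (SE 0.0959, adjusted p = 2.09e-06), and frontal cortex and hippocampus overlapped (log2 difference -0.18, SE 0.0961, adjusted p = 0.154). Without WT hippocampus replicate 1, Shisa9 was called lower in the hippocampus (-0.29, adjusted p = 0.0256 in edgeR).

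**Figure D1:**
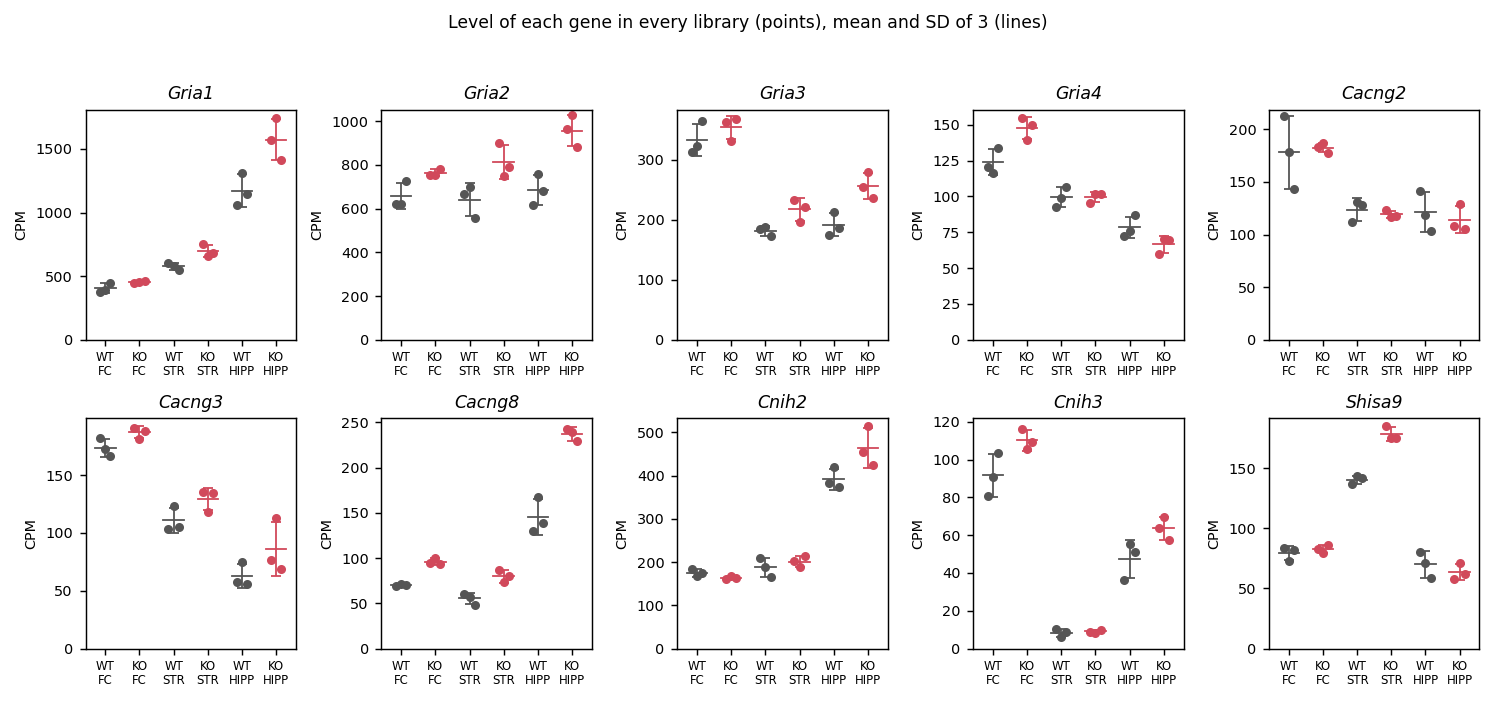
Levels of the 10 genes in CPM (linear axes that start at 0 and differ between panels) in every library, with the mean and SD of the 3 libraries of each group; WT in grey, Pcm1-/- (KO) in red; FC, frontal cortex; STR, striatum; HIPP, hippocampus. Cacng8 and Gria2 are higher in every KO library than in every WT library of the same region, and Cnih3 is below 11 CPM in all striatal libraries.

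In all, 8 of the 10 genes differed between hippocampus and frontal cortex (3 higher, 5 lower in hippocampus), where 18.4% of the 17545 genes were higher and 19.4% lower. For striatum over frontal cortex it was 8 (2 higher, 6 lower), where 24.2% of all genes were higher and 24.1% lower. For striatum over hippocampus it was 7 (3 higher, 4 lower), where 17.7% of all genes were higher and 18.2% lower. The median log2 difference of the 10 was -0.37, -0.33 and -0.086 in these 3 contrasts, beside -0.0062, 0.018 and 0.0045 over all genes. Leaving out WT striatum replicate 3 gave the same counts of 8 and 7 calls in its contrasts, beside 44.3% and 36.1% of all genes in either direction. Each WT group is used in 2 of the contrasts, and myelin and choroid plexus markers also differed between the regions: the 4 oligodendrocyte markers summed to 1505 to 2026 CPM in WT frontal cortex and 7303 to 7395 CPM in WT striatum. The part of such differences in the results was not tested.

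**Figure D2:**
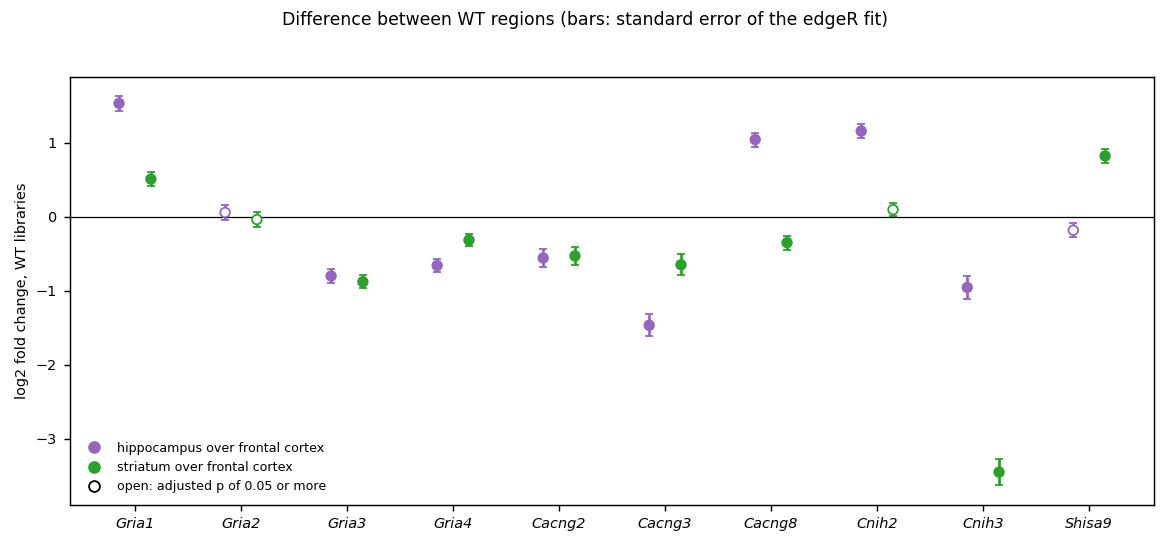
Log2 fold changes between WT regions from the edgeR fit of all 18 libraries (vertical axis), with standard errors as bars, for hippocampus over frontal cortex (purple) and striatum over frontal cortex (green); open points did not pass an adjusted p of 0.05. Gria2 lies near 0 in both contrasts, and Cnih3 in the striatum is the lowest point at -3.45.

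Levels of different genes were compared per kilobase of exon. In WT frontal cortex, Cnih2 led with 128 ± 6.58 CPM per kilobase (SD, n = 3), followed by Gria1 (66.9 ± 6.61) and Cacng3 (62.4 ± 2.88), whose ranges overlapped. Gria2 (42.2 ± 3.77) came next, and Gria3, Cnih3, Cacng2 and Cacng8, between 30.05 and 33.9 CPM per kilobase, had overlapping ranges except Gria3 and Cacng8. Shisa9 was lowest at 15.1 ± 1.08. In WT hippocampus Cnih2 (286 ± 18.03) and Gria1 (194 ± 21.3) led, and Cacng8 came next with 62.0 ± 8.51. In WT striatum the order was led by Cnih2 (137 ± 16.0) and Gria1 (95.4 ± 4.31), and Cnih3 was last with 3.05 ± 0.775 CPM per kilobase.

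Per kilobase, the subunit mixture shifted from a more even one in the frontal cortex to one dominated by Gria1 in the hippocampus. The Gria1 share of the summed level of the 4 subunit genes was 41.1% ± 0.653 in WT frontal cortex, 55.9% ± 1.09 in WT striatum and 71.8% ± 0.664 in WT hippocampus (SD, n = 3 each). The Gria2 share was 26.0% ± 0.296, 24.1% ± 1.74 and 16.3% ± 0.149 in the same order, and the Gria3 share 20.8% ± 0.175, 10.8% ± 0.107 and 7.21% ± 0.0755. Gria4 made up 12.1% ± 0.390, 9.28% ± 1.12 and 4.64% ± 0.584. The order of genes depends on the length used. The exon bases exceed the longest coding transcript in Gria2 (15548 against 10371) and, in proportion, more so in Gria3 (9859 against 5192). With that transcript length, chosen after the data were seen, the WT frontal cortex shares of Gria2 and Gria3 were 28.4% ± 0.309 and 28.8% ± 0.225. Among the 3 TARP members, Cacng8 was 24.2% ± 1.95 of the summed level per kilobase in WT frontal cortex, 27.5% ± 3.05 in WT striatum and 58.1% ± 3.26 in WT hippocampus. With the TARP genes Cacng4, Cacng5 and Cacng7 in the sum, chosen after the data were seen, these shares were 13.1% ± 1.35, 11.3% ± 1.52 and 30.6% ± 3.32.

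**Figure D3:**
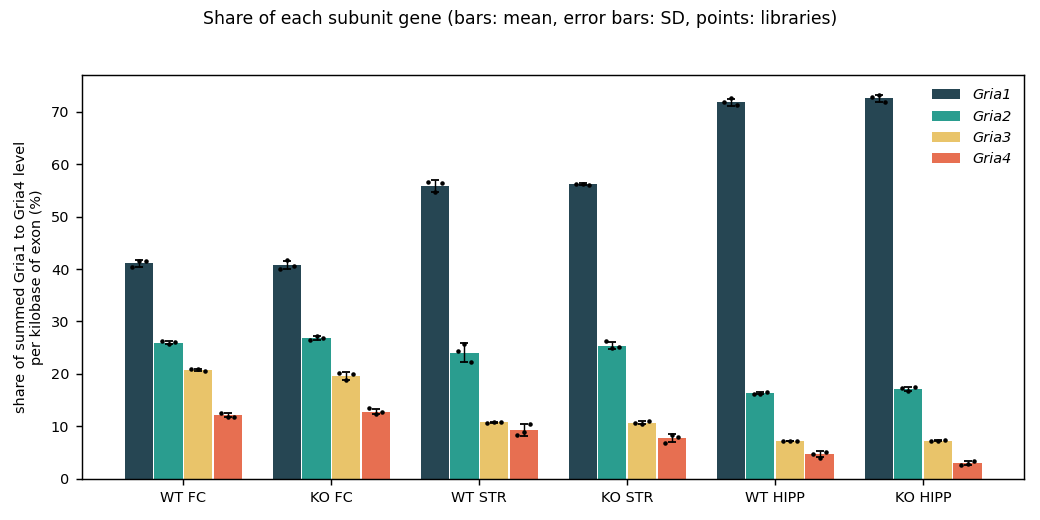
Share of each of Gria1 to Gria4 in their summed level per kilobase of exon, in percent, for the 6 groups; bars are means of 3 libraries, error bars SD and points libraries. The Gria1 bar rises from 41.1% in WT frontal cortex to 71.8% in WT hippocampus, and the Gria4 bar is lower in KO than in WT hippocampus.

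Between the genotypes, Cacng8 was the member that stood out. In frontal cortex its 3 WT libraries had 69.3, 71.5 and 70.6 CPM and its 3 KO libraries 94.2, 100.4 and 93.5 CPM. In the striatum the values were 60.6, 57.0 and 48.5 CPM in WT and 87.3, 73.1 and 79.8 CPM in KO. Hippocampal WT libraries had 129.5, 168 and 139 CPM and KO libraries 243, 239.6 and 229 CPM. Every KO library lay above every WT library in each of the 3 regions, which held for 1.9% of the 17545 genes, and the regions share their animals. Among the members this held for Gria2 as well. Cacng8 rose past the threshold in the frontal cortex, by 0.44 (SE 0.0522, adjusted p = 0.00927) on the log2 scale. The log2 difference of KO over WT was 0.53 (SE 0.0973, adjusted p = 0.125) for the striatum and 0.69 (SE 0.101, adjusted p = 0.287) for the hippocampus. The cortical adjusted p was 0.0669 without KO replicate 1, 0.0605 without KO replicate 2 and 0.0638 with lane in the fit. DESeq2 called Cacng8 in all 3 regions, in the frontal cortex beside 3.93% of all genes, with striatal and hippocampal adjusted p-values of 0.000529 and 9.25e-07. Per kilobase, the ratio of Cacng8 to the 4 subunit genes together was 18.6% ± 1.52 in WT and 22.4% ± 1.39 in KO frontal cortex, 13.8% ± 0.932 and 16.6% ± 0.378 for WT and KO striatum, and 22.9% ± 0.860 and 28.3% ± 2.11 for WT and KO hippocampus. These ratios did not overlap between the genotypes in any region (exact permutation p = 0.1 each, two-sided, the smallest p that 3 against 3 allows, and 0.200 adjusted over the 24 tests of shares and ratios).

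In the frontal cortex, Cacng8 was the 1 member called of 10, beside 1.41% of all genes called higher and 0.336% called lower in KO. The subunit genes had positive log2 differences there, of 0.15 (SE 0.0720, adjusted p = 0.370) for Gria1, 0.21 (SE 0.0676, adjusted p = 0.185) for Gria2, 0.079 (SE 0.0707, adjusted p = 0.650) for Gria3 and 0.25 (SE 0.0682, adjusted p = 0.123) for Gria4. Gria2 measured 623, 623 and 724 CPM in WT and 753, 755 and 782 CPM in KO libraries. Gria4 measured 121, 117 and 134 CPM in WT and 155, 139 and 149.9 CPM in KO libraries. Along with Cacng8 and Cnih3 (80.9, 90.9 and 103 against 116, 105 and 109 CPM), these were the 4 members with every KO library above every WT library, which 12% of all genes showed, and no member showed the opposite, which 9.28% of all genes did. Without WT replicate 3, Gria1, Gria2, Gria4 and Cnih3 passed the threshold as well (5 members), where the calls over all genes rose from 306 to 825 (4.7% of genes). Without KO replicate 1 or 2 no member did, beside 0.0627% and 0.154% of all genes. Cacng2, Cacng3, Cnih2 and Shisa9 had log2 differences between -0.10 and 0.10.

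In the striatum no member passed in edgeR, beside 0.0228% of all genes called higher and 0.0057% called lower. At an unadjusted p under 0.05 it was 6 members, all higher in KO, beside 6.54% of all genes. DESeq2 called 4 (Gria1, Gria2, Cacng8 and Shisa9), beside 2.79% of all genes. In 1 edgeR fit of all 18 libraries Cacng8 passed (adjusted p = 0.0230), beside 0.308% of all genes, and with lane added to that fit it did not (adjusted p = 0.168), beside 0.0456%. Gria1 had 601, 579 and 549 CPM in WT and 752, 657 and 686 CPM in KO libraries (log2 difference 0.28, SE 0.0771, adjusted p = 0.209). Gria2 had 667, 699 and 555.5 against 901, 749.9 and 790.3 CPM (log2 difference 0.35, SE 0.109, adjusted p = 0.244). Shisa9 had 137, 143 and 142 against 185, 175 and 175 CPM (log2 difference 0.35, SE 0.0549, adjusted p = 0.104). With Gria3 (log2 difference 0.26, SE 0.0763, adjusted p = 0.223) and Cacng8, 5 members had every KO library above every WT library, beside 9.6% of all genes, and no member lay below, beside 9.39% of all genes. Without WT replicate 3, the library with choroid plexus transcripts, still no member passed in edgeR, beside 0.0285% of all genes, and the log2 difference was 0.44 for Cacng8, 0.25 for Gria2 and 0.35 for Shisa9. Cacng3, Cnih2 and Cnih3 had log2 differences of 0.23 (SE 0.0851, adjusted p = 0.313), 0.10 (SE 0.0940, adjusted p = 0.690) and 0.11 (SE 0.191, adjusted p = 0.840). Without WT replicate 3 the Cnih2 difference was 0.014. Gria4 and Cacng2 were near 0 (0.003, SE 0.0666, adjusted p = 0.994 and -0.051, SE 0.0718, adjusted p = 0.799).

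In the hippocampus no member passed in edgeR either, beside 0.0114% of all genes called higher and 0.0057% called lower. At an unadjusted p under 0.05 it was 7 members (6 higher, 1 lower), beside 4.84% of all genes higher and 5.06% lower. DESeq2 called 4 (Gria1, Gria2, Gria3 and Cacng8), beside 1.21% of all genes, and the same 4 passed in 1 edgeR fit of all 18 libraries, beside 1.17%. With lane added to that fit Cacng8 alone passed (adjusted p = 0.0104), beside 160 of the 17545 genes. Gria1 had 1059, 1312 and 1144 CPM in WT and 1566, 1740.1 and 1414 CPM in KO libraries (log2 difference 0.41, SE 0.119, adjusted p = 0.405). Gria2 had 616, 756 and 681 against 961, 1026 and 881 CPM (log2 difference 0.46, SE 0.105, adjusted p = 0.391), and Gria3 175, 213 and 187 against 254, 280.2 and 236 CPM (log2 difference 0.40, SE 0.0970, adjusted p = 0.391). Gria4 went the other way, with 72.6, 75.9 and 86.9 CPM in WT and 59.7, 70.7 and 69.3 CPM in KO libraries (log2 difference -0.26, SE 0.101, adjusted p = 0.479). Both cornichon genes lay above WT, Cnih2 with 382, 419 and 373 against 454, 515 and 423 CPM (log2 difference 0.23, SE 0.0941, adjusted p = 0.497) and Cnih3 with 36.0, 55.1 and 50.8 against 63.5, 69.8 and 57.6 CPM (log2 difference 0.41, SE 0.154, adjusted p = 0.460). Cacng3, Cacng2 and Shisa9 overlapped between the genotypes, with log2 differences of 0.44 (SE 0.189, adjusted p = 0.505), -0.11 (SE 0.127, adjusted p = 0.791) and -0.16 (SE 0.126, adjusted p = 0.693). Without KO replicate 2 the Cacng3 difference was 0.20. In 6 members (Gria1, Gria2, Gria3, Cacng8, Cnih2 and Cnih3) every KO library lay above every WT library, beside 10.6% of all genes, and in 1, Gria4, every KO library lay below, beside 6.46% of all genes. The 10 members had a median log2 difference of 0.12 (frontal cortex), 0.24 (striatum) and 0.41 (hippocampus), beside -0.0066, -0.0023 and -0.00033 over all genes in the same order.

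**Figure D4:**
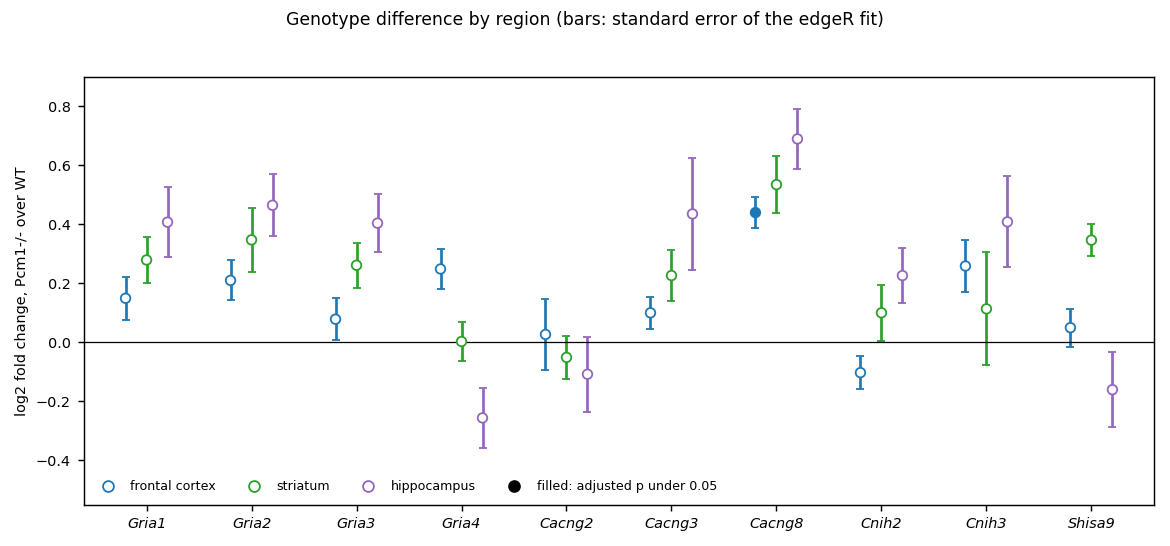
Log2 fold change of Pcm1-/- over WT (vertical axis) for each gene in the frontal cortex (blue), striatum (green) and hippocampus (purple), from 1 edgeR fit per region, with standard errors as bars; a filled point passed an adjusted p of 0.05. Cacng8 has the highest point in each region and 1 filled point, and Gria4 lies above 0 in the frontal cortex and below 0 in the hippocampus.

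Some cell type markers also differed between the genotypes. In the frontal cortex the excitatory neuron markers summed to 2363 to 2423 CPM in WT and 2744 to 2893 CPM in KO libraries, with 1 of 4 (Slc17a7, the vesicular glutamate transporter) called higher, by 0.26 (SE 0.0490, adjusted p = 0.0396) on the log2 scale. Leaving out any 1 library but WT replicate 3 ended that call (adjusted p 0.0826 to 0.190 in edgeR), as did lane within the region (0.144), 1 fit of all 18 libraries (0.872) and lane in that fit (0.939). The other 3 excitatory markers summed to 437 to 477 CPM in WT and 447 to 468 CPM in KO frontal cortex and overlapped. In the hippocampus the 4 summed to 1607 to 2139 and 2162 to 2706 CPM, and without Slc17a7 to 291 to 397 and 324 to 494 CPM, with overlap. In the striatum the 4 excitatory markers summed to 13.1 to 80.1 CPM in WT and 11.9 to 20.3 CPM in KO, with overlap. The highest of these was WT replicate 1, against 13.1 and 30.1 CPM in the other WT libraries. The 5 projection neuron markers summed there to 4914 to 5876 and 5946 to 6373 CPM, with no overlap between the genotypes. The 4 oligodendrocyte markers summed to 1505 to 2026 CPM in WT and 1363 to 1441 CPM in KO frontal cortex, to 7303 to 7395 and 4424 to 7173 in the striatum, and then to 3936 to 7557 and 2955 to 4748 in the hippocampus. The 3 microglia markers summed to 175 to 226 CPM in WT and 148 to 165 CPM in KO frontal cortex, to 227 to 311 and 198 to 226 CPM in the striatum, and to 185 to 261 and 175 to 189.6 CPM for the hippocampus, and they overlapped between the genotypes in the hippocampus. The 2 endothelial markers summed to 100.4 to 141 CPM in WT and 87.7 to 95.5 CPM in KO frontal cortex, to 86.4 to 123 and 86.1 to 94.1 CPM in the striatum, and to 77.4 to 115 and 66.9 to 72.3 CPM for the hippocampus, with overlap in the striatum. The 4 astrocyte markers summed to 1075 to 1357 CPM in WT and 1009 to 1149.9 CPM in KO frontal cortex, to 1281 to 1822 and 1133 to 1219 CPM in the striatum, and to 1843 to 2389.6 and 1851 to 1875 CPM for the hippocampus, with overlap in frontal cortex and hippocampus. The 4 interneuron markers summed to 233 to 296 CPM in WT and 318 to 360.2 CPM in KO frontal cortex, to 180.0 to 233 and 152 to 203 CPM in the striatum, and to 146 to 184 and 180.3 to 271 CPM for the hippocampus, with overlap in striatum and hippocampus. Of these 4, 1 was called, Sst in the frontal cortex (log2 difference 0.43, SE 0.0832, adjusted p = 0.0426 in edgeR), a call lost on leaving out any 1 library but WT replicate 3, with lane within the region (0.0595), in 1 fit of all 18 libraries (0.220) and with lane in that fit (0.136). Without Sst the other 3 summed to 105 to 144 CPM in WT and 139 to 153 CPM in KO frontal cortex and overlapped. Sst was also above WT in every KO library of the hippocampus (91.9, 126 and 100.3 against 141, 209 and 132 CPM, log2 difference 0.58, SE 0.186, adjusted p = 0.425), beside 10.6% of all genes. Pvalb went the other way there, with every KO library below every WT library (40.3, 33.6 and 32.3 against 25.8, 30.8 and 28.2 CPM), beside 6.46% of all genes. Vip and Lhx6 overlapped between the genotypes. The 3 choroid plexus markers summed to 2075 to 6107 CPM in WT and 210.0 to 4025 CPM in KO hippocampus, and to 30.2 to 5836 and 7.96 to 137 CPM in the striatum. Their part in the differences of the receptor genes was not tested.

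Whether the genotype difference of a member differed between regions was tested as an interaction on 2 degrees of freedom. No member passed in edgeR, beside 0.0114% of all genes, and DESeq2 called none, beside 0.536%. Gria4, Shisa9 and Cnih2 had an unadjusted p under 0.05 (3 members, beside 5.54% of all genes), and their adjusted p in edgeR was 0.494, 0.618 and 0.895.

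The share of Gria2 among the subunit genes, the subunit that limits calcium entry, was compared between genotypes by an exact permutation test. In the frontal cortex the WT libraries had 26.2, 25.7 and 26.0% and the KO libraries 26.5, 27.2 and 26.8%, and in the hippocampus 16.2, 16.2 and 16.5% and 17.4, 16.8 and 17.4%. The genotypes did not overlap in these regions, with differences of 0.853 and 0.860 percentage points (exact p = 0.1 and adjusted p = 0.200 each). In the striatum they overlapped (24.4, 25.6 and 22.2% and 26.2, 25.0 and 25.1%, difference 1.34 points, exact p = 0.3, adjusted p = 0.424), and without WT replicate 3 the striatal difference was 0.395 points. The Gria4 share in the hippocampus was 4.64% ± 0.584 in WT and 2.96% ± 0.372 in KO libraries (SD, n = 3 each; exact permutation p = 0.1, adjusted p = 0.200), without overlap. In the striatum it was 9.28% ± 1.12 and 7.72% ± 0.794 (exact permutation p = 0.1, adjusted p = 0.200), and the lowest WT and the highest KO library were both at 8.37% to 3 digits. Without WT replicate 3 the striatal WT mean was 8.66%, and the difference went from -1.57 to -0.946 points. The Gria4 level itself was 99.6 ± 7.05 CPM in WT and 99.6 ± 3.73 CPM in KO striatum, where Gria1 to Gria3 had positive log2 differences. In the frontal cortex the Gria4 share was 12.1% ± 0.390 in WT and 12.8% ± 0.544 in KO libraries and overlapped (exact permutation p = 0.2, adjusted p = 0.300). There the Gria3 share stood lower in every KO than in every WT library, at 20.8% ± 0.175 in WT and 19.6% ± 0.697 in KO (exact permutation p = 0.1, adjusted p = 0.200).

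The other genes of the AMPA receptor pathway were taken from lists by role. Of 10 further auxiliary genes, none passed for genotype in any region in edgeR, and 4, 2 and 3 had an unadjusted p under 0.05 in frontal cortex, striatum and hippocampus, beside 15.3%, 13.5% and 9.89% of all genes. Between WT regions 6 of the 10 differed in hippocampus over frontal cortex, beside 37.7% of all genes, and 7 in each contrast with the striatum, beside 48.3% (over frontal cortex) and 35.9% (over hippocampus). Shisa6 had 221, 219.9 and 167 CPM in WT hippocampus against 13.1, 13.2 and 14.2 in WT frontal cortex (log2 difference 3.91, SE 0.147, adjusted p = 1.23e-11), and Cacng4, a TARP gene, had 194, 210.1 and 177 CPM in WT striatum against 37.1, 32.7 and 36.9 in WT frontal cortex (log2 difference 2.44, SE 0.103, adjusted p = 9.71e-12). Gsg1l, whose product slows recovery from desensitization, was lower in hippocampus than in frontal cortex (log2 difference -1.80, SE 0.112, adjusted p = 3.71e-09). Of the 6 genes listed for assembly, among them the RNA editing gene Adarb1, none passed for genotype in edgeR. In the same order of regions, 3, 4 and 4 had an unadjusted p under 0.05, beside the same shares of all genes. Of these, 3 were higher in each region, and 1 was lower in striatum and 1 in hippocampus. Adarb1 was lower in every KO library of the hippocampus (400, 274 and 351 against 221, 204 and 265 CPM), beside 6.46% of all genes. Between WT regions, 5 of the 6 were lower in striatum than in hippocampus, beside 18.2% of all genes. In striatum over frontal cortex 3 were lower, beside 24.1%, and in hippocampus over frontal cortex 1 was higher, beside 18.4%.

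Of 12 trafficking and scaffold genes, 1 passed for genotype, in the frontal cortex, where 0.336% of all genes were called lower. Camk2a, the kinase subunit that acts at the postsynaptic density, fell in the KO frontal cortex, from 5782, 5159 and 5035 CPM in WT to 4428, 4114 and 4348 CPM in KO libraries (log2 difference -0.32, SE 0.0631, adjusted p = 0.0475). Of 6 extracellular partners, 2 rose there, beside 1.41% of all genes: Olfm2 (log2 difference 0.38, SE 0.0546, adjusted p = 0.0177) and Olfm3 (log2 difference 0.37, SE 0.0547, adjusted p = 0.0177), both of the olfactomedin family. These calls needed all 3 KO libraries: leaving out any 1 KO library ended all 3 (adjusted p 0.0620 to 0.200 in edgeR), as did lane in the fit and 1 fit of all 18 libraries (0.399, 0.201 and 0.279 for Camk2a, Olfm2 and Olfm3). WT replicate 1 ended those of Camk2a and Olfm3 (0.0910 and 0.0529) and WT replicate 2 those of Camk2a and Olfm2 (0.106 and 0.0622), when left out. In the striatum and hippocampus no gene of these lists passed in edgeR, with 0 and 3 trafficking genes and 2 and 1 extracellular partners at an unadjusted p under 0.05, beside 13.5% and 9.89% of all genes. Between WT regions the pentraxin genes Nptx1 and Nptxr, whose products cluster AMPA receptors, were lower in striatum than in frontal cortex (-3.11, SE 0.138, adjusted p = 1.78e-11 and -3.41, SE 0.139, adjusted p = 6.12e-12).

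Over the 18 libraries, the genes outside the lists whose log2 CPM followed a subunit gene most closely, among the 10083 compared (mean log2 CPM not under 3), were Ptk2b (Pearson r = 0.990) and Dpp6 (0.989) for Gria1. For Gria2 they were Slitrk5 (0.919) and Cnnm4 (0.902), for Gria3 Gda (0.980) and Map9 (0.978), and for Gria4 Cntn4 (0.973) and Dpp10 (0.972). The libraries share 3 regions and 6 animals, so these values describe the pattern over regions.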

How the data were processed

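Poly-A RNA libraries were made with a KAPA stranded kit and sequenced on an Illumina HiSeq. The authors used TrimGalore for trimming, STAR for alignment to GRCm38 and HTSeq to count uniquely placed reads per Ensembl gene, and deposited raw counts, 1 file per library, without normalization. Tool versions and the strand setting are not given in the sources used here. From 86.8% to 89.2% of the counted reads were assigned to genes, and the rest was left out. Gene symbols, positions and lengths came from the GENCODE M21 annotation of the same build.

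Counts were tested with edgeR 4.0.16 (TMM, quasi-likelihood, Benjamini-Hochberg over the 17545 genes that reached 10 counts in any library) in R 4.3.3, per region for genotype and in 1 fit of the 18 libraries for WT regions and the interaction. CPM used TMM factors over the 18 libraries, and log2 CPM a prior count of 2. Named genes are the 10 members, listed pathway genes that passed for genotype or had the largest region differences (at most 3 per list), Pcm1, and the 2 closest genes per subunit gene. Slc17a7 and Sst were added after values were seen. The members and lists were chosen with earlier results of these data known. Alternatives were DESeq2 1.42.0, its size factors, other filters, lane, the replicate number or animal as a block, other fits and leaving out each library. The steps were tested on simulated data. Replicates differed by more than sampling noise.

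Hippocampal libraries with the same replicate number deviated together (r = 0.124, 0.609 and 0.277 for the 3 pairs), each over 0.1. The values given are from the fit without the replicate block, which was run as an alternative. Not every library correlated best with its own number, and the pair of replicates 2 also holds the libraries with high Y-linked levels, so number and sex cannot be told apart for it. In the frontal cortex and the striatum at least 1 pair was under 0.1. Each animal gave 1 library per region, according to the names of the deposited files.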

Additional observations from a re-analysis of the deposited data

Results flagged for a closer look

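Gria4 had genotype differences of opposite sign in 2 regions. Every KO library was above every WT library in the frontal cortex, with a log2 difference of 0.25, and every KO library was below every WT library in the hippocampus, with -0.26. The interaction over the 3 regions had an unadjusted p of 0.00253 and an adjusted p of 0.494 in edgeR, so the difference between regions did not pass the correction.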

How the results depend on the processing

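In the frontal cortex the count of members called for genotype was 1, and 2 with the replicate number as a block (Gria4 added, with 665 genes called, 3.79% of 17545, against 306 without it), 0 with lane within the region and 0 with lane in the fit of all 18 libraries; leaving out each library gave 0 to 5. In the striatum it was 0, and 1 without a low-count filter (beside 61 of 26966 genes), 4 with DESeq2 and 1 in 1 fit of all 18 libraries (Cacng8). Lane in that edgeR fit ended the Cacng8 call (adjusted p = 0.168), with a log2 difference of 0.50 against 0.53 without lane. In the hippocampus it was 0, and 4 with DESeq2, 4 in 1 fit of all 18 libraries and 1 with lane added to that fit (beside 160 of 17545 genes). The block changed no hippocampal call. The striatal block gave 0, and in none of the 3 regions did every library correlate best with its own replicate number. The cause of these changes was not tested. Counts of members called between WT regions and in the interaction stayed within 1.5 times under every alternative run, and the Gria2 share kept its direction in each region.

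Signs that changed belonged to differences near 0 that passed no test. The striatal genotype difference of Gria4 was -0.00060 with DESeq2's size factors and -0.00062 with DESeq2. Leaving out each library, it ranged from -0.045 to 0.054, and the genotype difference from -0.11 to 0.18 (Cacng2) and -0.00038 to 0.085 (Shisa9) in the frontal cortex, -0.071 to 0.29 (Cnih3, striatum) and -0.22 to 0.019 (Cacng2, hippocampus). Between WT regions, striatum over frontal cortex ranged from -0.10 to 0.059 for Gria2, hippocampus over frontal cortex from -0.021 to 0.14 for Gria2, and striatum over hippocampus from -0.17 to 0.0028 for Gria2, -0.14 to 0.0098 for Gria3 and -0.064 to 0.15 for Cacng2. With 3 libraries a group, small genotype differences are not resolved.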

Other observations

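The summed level of the 10 genes was higher in every KO library than in every WT library of its region, at 2207 to 2412 CPM in WT and 2498 to 2577 CPM in KO frontal cortex, 1982 to 2215 and 2385 to 2725 CPM in the striatum, and 2751 to 3264 and 3546 to 4253 CPM in the hippocampus. No test was made of this sum. The cornichon genes relative to the 4 subunit genes, per kilobase, stood at 113% ± 6.07 in WT and 101% ± 1.31 in KO hippocampus (SD, n = 3 each), and at 99.6% ± 7.76 and 87.4% ± 2.96 in the frontal cortex, without overlap in either region (exact permutation p = 0.1, adjusted p = 0.200 each). In the striatum they stood at 81.8% ± 6.27 and 73.0% ± 5.36 and overlapped (exact permutation p = 0.2, adjusted p = 0.300).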
